A study of Mus musculus with 2 samples.

Results

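The genes described here encode enzymes and regulators that make the lipids of skin: sterols, fatty acids and sphingolipids. The list holds 40 genes named by function, and a gene was taken up when the platform annotation gave exactly 1 gene symbol for a probe set and that symbol was on the list. This found 34 of the 40, among 8251 genes in all: 16 of 18 in the sterol branch, 11 of 15 in the fatty acid branch and 7 of 7 in the sphingolipid branch. Srebf2, Soat1, Acaca, Fads2, Elovl4 and Acsl1 were not found by this rule and have no expression value here. Their promoters were counted in the promoter search below.

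Skin lipids come from a common precursor, acetyl-CoA. In the sterol branch it passes through mevalonate, farnesyl diphosphate and squalene to lanosterol and then to cholesterol. Acetyl-CoA carboxylase and fatty acid synthase build fatty acids, which elongases lengthen and desaturases make unsaturated. In the sphingolipid branch, serine palmitoyltransferase starts the route to ceramide. Cholesterol, free fatty acids and ceramides fill the spaces between the cells of the stratum corneum and form the water barrier. The SREBP transcription factors switch on many genes of the sterol and fatty acid branches when cell sterol is low. Sebaceous glands and the fat layer of the dermis use the same enzymes for other products.

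The samples were skin of newborn mice without keratin 5 (K5-/-, called K5 knockout here), a model of epidermolysis bullosa simplex, in which basal keratinocytes rupture, and skin of newborn wild type mice. The labels give no strain, no other allele and no treatment. RNA of 6 animals per genotype was pooled and hybridised to a single array, 2 arrays in all, so no value has a replicate and no test was possible. The source label says epidermis, but the titles and the protocol say skin. On both arrays dermal and muscle transcripts were bright: Col1a1, a dermal collagen, read 48700.2 in knockout skin and 39262 in wild type skin, and the muscle actin Acta1 read 41499.5 in knockout skin and 39734 in wild type skin. Krt5, the deleted gene, read 81.2 in knockout skin and 46.6 in wild type skin, below the limit of use on both, so it does not check the labels.

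All values are MAS5 signals in intensity units, and differences are log2 ratios of knockout over wild type. Signals below a floor of 246.7, the 40th percentile of all values, were raised to that floor. A gene counts as measured here if its brightest probe set exceeded the floor on 1 array or on both. Of the 34 genes, 32 were measured, each of them above the floor on both arrays, and Insig1 and Elovl3 were at the floor on both. The error that 1 array per group allows to be estimated is how far probe sets for 1 gene disagree. Over 838 genes this probe-set spread had an SD of 0.30 in log2 ratio, and it holds no variation between animals. The RNA is from whole tissue, so fewer cells of a type and less RNA per cell cannot be told apart.

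No gene of the 3 branches differed 2-fold between the pools. The count was 0 of 32, where 2.24% of the 5976 measured genes did, 1.54% being higher and 0.703% lower in the knockout. At 1.5-fold there were 2 of 32, where 12.9% of measured genes passed: Sc5d, which was higher (7.63% of measured genes were), and Scd1, which was lower (5.27% were). Of the 32 genes 17 were higher and 15 lower in the knockout by any amount, beside 53.9% higher and 46.1% lower among all measured genes. By branch, 8 of 15 sterol genes (10 of 15 with quantile normalization or lowess correction), 5 of 10 fatty acid genes (4 of 10 with either) and 4 of 7 sphingolipid genes (5 of 7 with lowess correction) were higher. The median log2 ratio was 0.14 in the sterol branch, -0.022 in the fatty acid branch and 0.11 in the sphingolipid branch, against 0.035 for all measured genes. The median of all measured genes was -0.0036 with quantile normalization and 0.0099 with lowess correction. The 53.9% and 46.1%, here and below, were not recomputed under these alternatives. The sterol median was -0.0016 with a higher floor (60th percentile) and 0.012 with probe sets of plain type only (identifiers without a letter suffix). The fatty acid median was 0.044 with a lower floor (25th percentile) and 0.0041 with the higher one, so it has no settled sign. The ratios of 25 of the 32 genes, or 78.1%, lay within 1 SD of the probe-set spread from 0, against 58.3% of all measured genes. The probe sets of these genes were also brighter, with a median of the 2-array mean signal of 1763, against 1076 for all measured genes, and the part of brightness in that narrow spread was not tested.

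**Figure D1:**
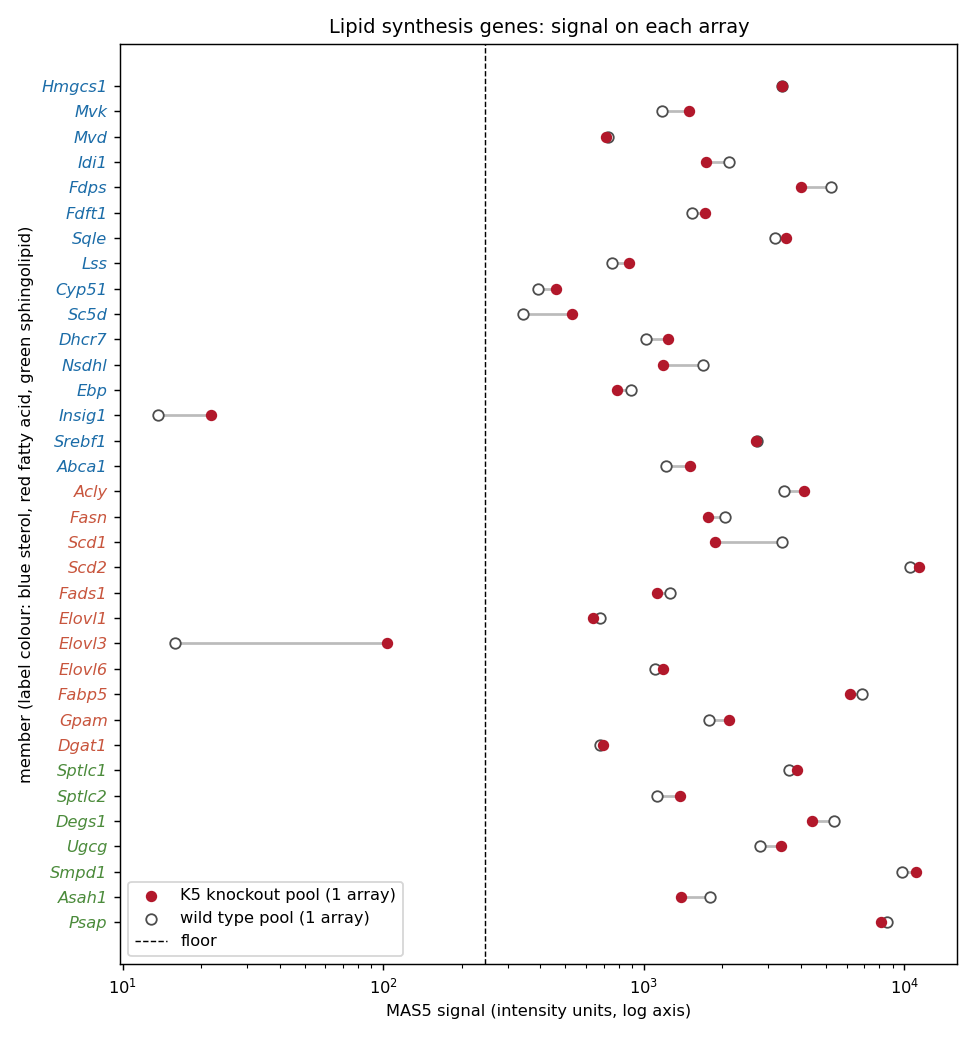
MAS5 signal (intensity units, log axis) of the 34 genes on the K5 knockout array (filled) and the wild type array (open), 1 array per group, with the floor dashed. Most pairs of points lie close together, Scd1 shows the knockout left of the wild type, and Insig1 and Elovl3 lie below the floor on both arrays.

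Promoter sequences of the sterol branch are shown before its values, because SREBP acts on the branch through them. Promoters of 300 bases, 250 before to 50 after the start site, were taken from RefSeq for mouse build GRCm38.p6, where 30 of the 40 listed genes had one. No promoter was found for Scd1, Scd2, Fdps, Fdft1, Sqle, Fads1, Fabp5, Asah1, Dgat1 and Elovl3, so the counts leave them out. The core of the sterol regulatory element, the SREBP site, was searched as TCACNCCAC, and the NF-Y box, bound by a common partner of SREBP, as CCAAT, both on either strand; the motifs do not overlap each other in the promoters printed. Counting a gene if any of its promoters matched, CCAAT stood in 14 of 15 sterol genes (93.3%), 6 of 9 fatty acid genes (66.7%) and 3 of 6 sphingolipid genes (50%), against 41.1% of 27025 genes. TCACNCCAC stood in 2 of the 30 genes (6.67%), Hmgcs1 and Acsl1, against 1.44% of all genes. These counts include genes with no expression value here, among them Acsl1. A match describes these letters only, and their absence says nothing about other forms of a site.

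The 4 promoters printed are those of Hmgcs1, which holds both motifs, of Sc5d and Nsdhl, which had the highest and the lowest ratio of the measured sterol genes, and of Abca1, the 1 sterol-branch gene with CCAAT in none of its promoters here. Capitals mark TCACNCCAC and CCAAT, or the same letters read on the other strand (ATTGG for CCAAT).
Hmgcs1, chr13:119690101-119690400, plus strand: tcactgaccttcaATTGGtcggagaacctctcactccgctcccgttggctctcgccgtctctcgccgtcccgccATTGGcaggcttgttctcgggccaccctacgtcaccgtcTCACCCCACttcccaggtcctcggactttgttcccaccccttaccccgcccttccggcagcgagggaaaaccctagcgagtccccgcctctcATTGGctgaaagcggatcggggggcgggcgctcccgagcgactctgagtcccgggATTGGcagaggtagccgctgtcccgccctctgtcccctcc
Sc5d, chr9:42264251-42264550, minus strand: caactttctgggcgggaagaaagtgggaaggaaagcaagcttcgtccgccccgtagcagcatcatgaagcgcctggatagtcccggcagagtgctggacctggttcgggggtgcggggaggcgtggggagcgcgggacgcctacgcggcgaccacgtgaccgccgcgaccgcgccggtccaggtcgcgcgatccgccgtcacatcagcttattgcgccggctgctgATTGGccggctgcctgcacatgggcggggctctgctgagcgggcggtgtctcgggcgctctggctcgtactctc
Nsdhl, chrX:72918271-72918570, plus strand: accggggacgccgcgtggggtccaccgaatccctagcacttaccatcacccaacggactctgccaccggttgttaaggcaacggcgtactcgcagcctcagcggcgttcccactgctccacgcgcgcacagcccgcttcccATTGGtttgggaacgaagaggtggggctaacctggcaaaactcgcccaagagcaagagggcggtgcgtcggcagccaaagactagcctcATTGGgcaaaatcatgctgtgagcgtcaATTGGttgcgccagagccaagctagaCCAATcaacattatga
Abca1, chr4:53159846-53160145, minus strand: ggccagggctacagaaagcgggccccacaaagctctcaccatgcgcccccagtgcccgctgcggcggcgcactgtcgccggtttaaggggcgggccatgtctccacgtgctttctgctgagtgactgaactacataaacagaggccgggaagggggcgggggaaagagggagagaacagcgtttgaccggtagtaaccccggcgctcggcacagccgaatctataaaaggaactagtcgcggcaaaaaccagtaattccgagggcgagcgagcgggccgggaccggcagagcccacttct

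In Hmgcs1 the sterol element begins 137 bases before the start site, between CCAAT boxes that lie 176 and 45 bases before it. Sc5d holds 1 CCAAT box and Nsdhl holds 4. As 14 of 15 sterol genes with a promoter hold the box, its presence in these genes says nothing about their ratios.

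Of the 5 early mevalonate genes 4 had a log2 ratio below 0 (3 with quantile normalization or lowess correction, where Hmgcs1 was above 0), with a median of -0.033. Among all measured genes 46.1% were lower. Hmgcs1, the cytosolic HMG-CoA synthase that commits acetyl units to the pathway, read 3376 in knockout skin and 3379.7 in wild type skin, a log2 ratio of -0.0016. Mvd, which makes isopentenyl diphosphate, read 713.5 and 730.1 on the knockout and wild type arrays, a ratio of -0.033. Both genes were level between the pools. Idi1, the isomerase of isopentenyl diphosphate, read 1737 in knockout skin and 2124 in wild type skin, a ratio of -0.29. Fdps, the farnesyl diphosphate synthase at the branch point to sterols and isoprenoids, read 3999 in knockout skin and 5224.5 in wild type skin, a ratio of -0.39. Fdps was the lowest of these 5 genes and lay outside 1 SD of the probe-set spread. Its next brightest set gave -0.44 (2561 against 3483), and its other 2 were at the floor. Fdps has processed pseudogene copies, so its probe sets may read more than 1 locus. Mvk, mevalonate kinase, read 1483 in knockout skin and 1175 in wild type skin, a ratio of 0.34, but its other probe set read 415 and 470.2, a ratio of -0.18. The mean over its probe sets was 0.078. Both probe sets of Mvk carry a letter suffix, so it has no ratio with plain probe sets only.

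From squalene to cholesterol, 6 of 8 genes were higher in the knockout, also with quantile normalization and lowess correction, and the median was 0.19. Among all measured genes 53.9% were higher. Squalene synthase, Fdft1, read 1711.5 in knockout skin and 1532 in wild type skin, a log2 ratio of 0.16. Squalene epoxidase, Sqle, a control point of the pathway, read 3500.5 and 3173 on the knockout and wild type arrays (0.14). Lanosterol synthase, Lss, read 880.2 in knockout skin and 751.7 in wild type skin (0.23). These 3 genes, which act one after the other, had ratios of the same sign, each within 1 SD. Cyp51, the lanosterol demethylase, read 461.6 in knockout skin and 393 in wild type skin (0.23), not far above the floor. Dhcr7, the reductase of the last step, read 1242 in knockout skin and 1021 in wild type skin (0.28). Its sign was that of Fdft1, Sqle and Lss, while Nsdhl and Ebp, also of this group, were lower in the knockout (-0.50 and -0.18).

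Sc5d, the sterol desaturase just before Dhcr7, had the highest ratio of all 32 genes. It read 527.9 in knockout skin and 342.8 in wild type skin, 1.54-fold higher with a log2 ratio of 0.62, and 93.4% of measured genes had a lower ratio. Both signals were not far above the floor, and the other probe set of Sc5d was at the floor on both arrays. Its ratio was 0.50 with a pseudocount of 100 in place of the floor and 0.31 as the mean over its probe sets. A floor at the 60th percentile left Sc5d without a ratio. So did plain probe sets only, as both of its probe sets carry a letter suffix. Nsdhl, a dehydrogenase in the removal of methyl groups from lanosterol, went the other way, with 1187 in knockout skin and 1681 in wild type skin, a ratio of -0.50. Its other 2 probe sets gave 0.012 (982.4 against 974.1) and -0.30 (820.8 against 1014), so the size of the Nsdhl difference depended on the probe set. Ebp, the sterol isomerase, read 791 in knockout skin and 893.3 in wild type skin (-0.18). Nsdhl and Ebp are the 2 measured members on the X chromosome; 89 of 172 measured X-linked genes were lower in the knockout, with a median of -0.020.

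Sterol sensing and export added 2 measured genes. Srebf1, the gene of SREBP-1, read 2681 in knockout skin and 2708 in wild type skin, a log2 ratio of -0.014 (0.018 with quantile normalization), so the transcript of this regulator was level. Insig1, which holds SREBP precursors in the endoplasmic reticulum and is itself an SREBP target, read 21.9 in knockout skin and 13.7 in wild type skin, both below the floor, and has no ratio. Abca1, the transporter that exports cholesterol from cells, read 1499 in knockout skin and 1216 in wild type skin, a ratio of 0.30, and its other probe set gave 0.64 (791.4 against 508.3). Both probe sets of Abca1 were higher in the knockout. Macrophages also use Abca1, and their markers were higher on the same array, 9 of 9 measured, beside 53.9% of all measured genes. Their summed signals were 15336 in knockout skin and 10707 in wild type skin. The part of macrophages in the Abca1 value was not tested.

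**Figure D2:**
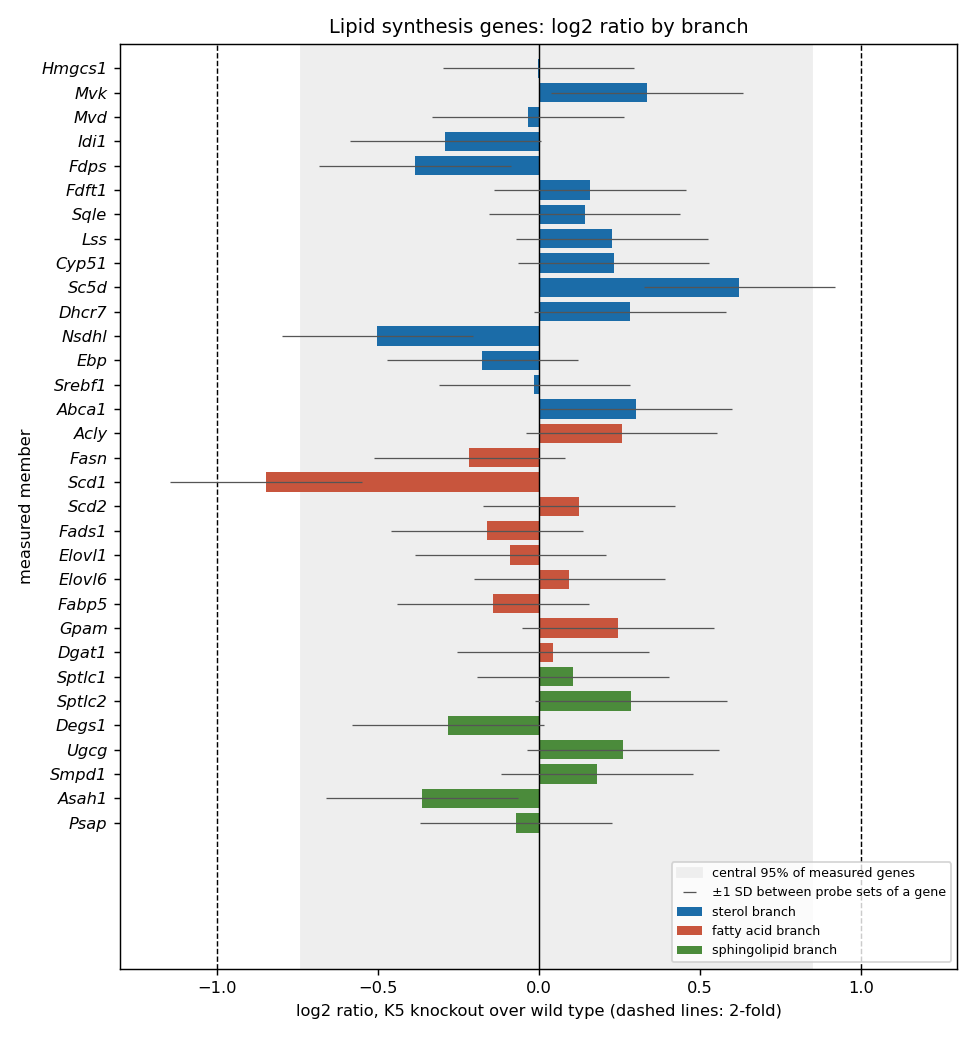
Log2 ratio of K5 knockout over wild type for the 32 measured genes, coloured by branch, grouped by role; whiskers show 1 SD (0.30) between probe sets of a gene, the grey band the central 95% of measured genes (-0.74 to 0.85) and dashed lines a 2-fold difference. No bar reaches 2-fold, and Scd1 is the 1 bar past the grey band. In the order drawn, the bars from Fdft1 to Dhcr7 point to the right and those of Nsdhl and Ebp, below them, to the left.

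In the fatty acid branch, 5 of 10 measured genes were higher and 5 lower in the knockout. Acly, which makes cytosolic acetyl-CoA from citrate, read 4129.8 in knockout skin and 3456 in wild type skin, a log2 ratio of 0.26. Fasn, fatty acid synthase, read 1762 in knockout skin and 2046 in wild type skin, a ratio of -0.22. These 2 genes of the same route had ratios of opposite sign, each within 1 SD.

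Scd1, a stearoyl-CoA desaturase that makes monounsaturated fatty acids and is prominent in sebaceous glands, had the lowest ratio of the 32 genes. It read 1879 in knockout skin and 3379.5 in wild type skin, 1.80-fold lower with a log2 ratio of -0.85, and 1.44% of measured genes had a lower ratio. Another probe set of Scd1 gave -0.70 (1812 against 2945), and the remaining one was at the floor on both arrays. The mean over its probe sets was -0.52, short of 1.5-fold. Scd2, an isoform known from neonatal skin and from brain, read 11408.5 in knockout skin and 10465 in wild type skin, a ratio of 0.12, and its other probe set gave 0.18 (5481 against 4826). The ratios of the 2 isoforms had opposite signs, each in both of its probe sets above the floor. The isoforms are close in sequence, and cross-hybridisation between them was not tested.

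Sebaceous gland markers were read beside Scd1. That list includes Scd1 and Elovl3 themselves, so its counts and median are not independent of the Scd1 value. Of 6 measured, 3 were higher and 3 lower, with a median of -0.074 (2 higher, 4 lower and -0.19 with quantile normalization, 0.081 with the lower floor and -0.36 with the higher one). The melanocortin receptor gene Mc5r was at 0.22 (358.7 in knockout skin, 308.4 in wild type skin) and the lipid droplet gene Plin2 at 0.34. The other measured markers apart from Scd1 were Pparg at 0.081, Cidea at -0.23 and Mgst1 at -0.36. Adipocyte markers had a median of -0.064 (0.081 with the lower floor), with 4 of 9 higher: Adipoq, the adipocyte hormone adiponectin, read 6406 in knockout skin and 5918 in wild type skin, the hormone-sensitive lipase gene Lipe was highest at 0.55, Retn lowest at -0.33, and the bright Cebpa was at -0.064. The part of these cells in the Scd1 value was not tested.

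The other fatty acid genes lay closer to 0. Fads1, a desaturase of polyunsaturated fatty acids, read 1125 in knockout skin and 1258 in wild type skin, a log2 ratio of -0.16. Elovl1, an elongase of saturated very long chains, read 636.2 in knockout skin and 676.4 in wild type skin (-0.088). Elovl6, which lengthens palmitate, read 1183 in knockout skin and 1108 in wild type skin (0.095), while its other probe set, just above the floor on the knockout array, gave -0.63 (285.8 against 441.9). The 2 probe sets of Elovl6 disagreed in sign and by more than 2 SD, and no direction is given for it. Elovl3, the elongase of sebaceous and brown fat lipids, read 104 in knockout skin and 15.9 in wild type skin, both below the floor, and has no ratio.

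Of the genes that bind fatty acids or build glycerolipids, Fabp5, the epidermal fatty acid binding protein, read 6200 in knockout skin and 6840 in wild type skin, a log2 ratio of -0.14. Gpam, the acyltransferase that starts glycerolipid synthesis, read 2116 in knockout skin and 1784 in wild type skin (0.25). Dgat1, which completes triglycerides, read 699.5 in knockout skin and 678.5 in wild type skin (0.044). None of the 3 left 1 SD of the probe-set spread.

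In the sphingolipid branch, 4 of 7 genes were higher in the knockout, beside 53.9% of all measured genes. None differed 1.5-fold, where 12.9% of measured genes did. The 2 measured subunits of serine palmitoyltransferase were both higher: Sptlc1 read 3868 in knockout skin and 3593.5 in wild type skin, a log2 ratio of 0.11, and Sptlc2 read 1374 in knockout skin and 1127 in wild type skin, a ratio of 0.29. Degs1, the desaturase that turns dihydroceramide into ceramide, read 4416 in knockout skin and 5374.5 in wild type skin (-0.28). Ugcg, which glucosylates ceramide for storage in lamellar granules, read 3350 in knockout skin and 2796 in wild type skin (0.26), and its dimmer probe set gave 0.087. Each of these 4 ratios was within 1 SD of 0.

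Genes that release or break down ceramide in the barrier or in lysosomes were mixed. Smpd1, acid sphingomyelinase, read 11078 in knockout skin and 9775 in wild type skin, a log2 ratio of 0.18. Psap, the precursor of the saposins that help lysosomal enzymes reach their lipids, read 8135 in knockout skin and 8550.5 in wild type skin (-0.072), with -0.27 and 0.083 for its other probe sets. Asah1, acid ceramidase, which cleaves ceramide, read 1391 in knockout skin and 1789 in wild type skin, a ratio of -0.36. Asah1 had the lowest ratio of the 7 genes and was the 1 outside 1 SD.

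**Figure D3:**
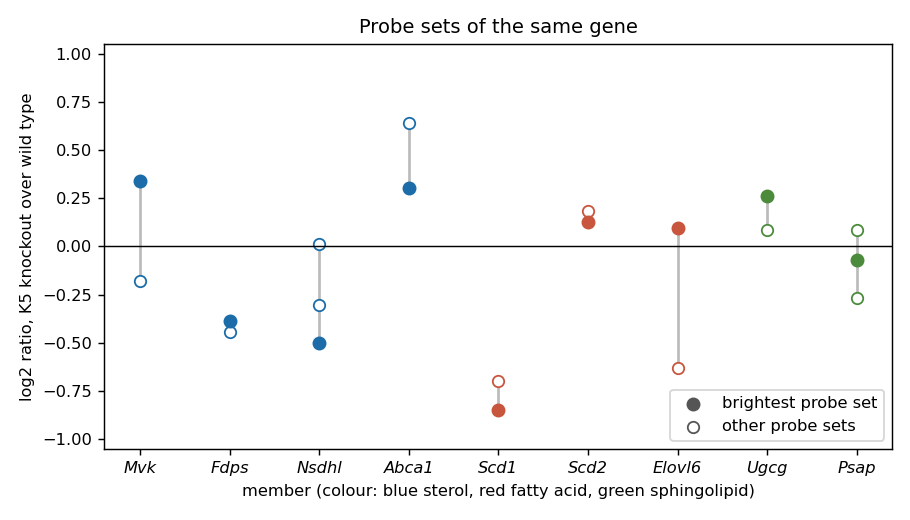
Log2 ratio of K5 knockout over wild type for single probe sets, shown for the 9 genes with 2 or more that exceeded the floor on both arrays; filled points are the brightest probe set, which gives the value in the text. Scd1, Scd2, Fdps, Abca1 and Ugcg have all points on the same side of 0, and Mvk, Nsdhl, Elovl6 and Psap do not.

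Of these 9 genes, 5 had ratios of the same sign and 4 of both signs. The SD between their probe sets was 0.25. That is as large as most single ratios of the 3 branches.

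Further genes of the same pathways were read from 3 lists, and 0 of their 45 measured genes differed 2-fold, where 2.24% of all measured genes did. Among the other sterol genes 9 of 12 were higher in the knockout (7 of 12 with quantile normalization), with a median of 0.13, beside 53.9% higher among all measured genes. Npc1, which moves cholesterol out of lysosomes, had the highest ratio, 0.72 (857 in knockout skin, 519.3 in wild type skin), and its partner Npc2 was at -0.26 (4049 against 4843). Abcg1, a cholesterol exporter related to Abca1 in function, was at 0.52 (769.5 against 538.4) and Nr1h3, the oxysterol receptor LXR alpha that switches on both exporters, at 0.25 (364.1 against 306.2). The ratio of Nr1h3 was within 1 SD of the probe-set spread, and its signals were not far above the floor. Macrophage markers were higher on the same array, and the part of macrophages in the Abcg1, Nr1h3 and Abca1 values was not tested. Hsd17b7 was at 0.22 and Tm7sf2 at 0.031, both enzymes of late sterol synthesis; Mbtps1, the protease that cuts SREBP, was at -0.016 and Cyp11a1, of steroid hormone synthesis, at -0.32.

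Among the other fatty acid and glycerolipid genes 9 of 20 were higher, with a median of -0.061, beside 53.9% higher among all measured genes. The highest ratios were those of Hacd3, a dehydratase of the elongation cycle (0.61, 3159 in knockout skin against 2075 in wild type skin), Slc27a4, the fatty acid transporter needed for the skin barrier (0.56, 1099 against 744.3), and Cpt1a, which admits fatty acids to mitochondria (0.51, 2822 against 1978). Acadm, of beta-oxidation, was at 0.36. The lowest were the phosphatidate phosphatases Lpin2 (-0.51, 317.2 against 451.5) and Lpin1 (-0.41, 410.9 against 547.2), Thrsp, a lipogenic SREBP target (-0.43, 301.5 against 407.5), and Acadl (-0.33). Hacd3 was the 1 gene of this list past 1.5-fold, where 12.9% of measured genes were.

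Among the other sphingolipid and barrier lipid genes 10 of 13 were higher, beside 53.9% of all measured genes. Their median was 0.14 (0.075 with the mean over probe sets). None was past 1.5-fold, where 12.9% of measured genes were. B4galt6, of glycosphingolipid synthesis, was at 0.51 (480.7 in knockout skin against 337.2 in wild type skin), Abhd5, a lipase cofactor whose loss causes ichthyosis, at 0.47 (2584 against 1866), Degs2, which makes phytoceramide, at 0.46 (1364 against 993) and Sphk1, a sphingosine kinase, at 0.21. Of the genes above the floor on both arrays, the lowest were Cers2, a ceramide synthase (-0.32, 290.6 against 363.6), Smpd2 (-0.081), Gm2a (0.0074) and Alox12b (0.075), the last a lipoxygenase of the barrier. St3gal5, a sialyltransferase of ganglioside synthesis, exceeded the floor on the wild type array alone (167 in knockout skin, 284.5 in wild type skin), which gives -0.21 from the floor and makes it 1 of the 3 lower genes.

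Markers of cell types on the same arrays give the tissue beside which these values stand. Among all measured genes 53.9% were higher and 46.1% lower in the knockout. Suprabasal keratinocyte markers were higher for 7 of 9 (5 of 9 with quantile normalization), with summed signals of 289039 in knockout skin and 253171 in wild type skin and a median log2 ratio of 0.28, led by involucrin (Ivl, 1.27) with Krt2 lowest at -0.51 and the bright Calm4 at 0.18. The 4 measured basal keratinocyte markers were all lower, from -0.56 for Itgb4 to -0.29 for Col17a1 and at -0.54 for Trp63, with summed signals of 7350.2 in knockout skin and 9945 in wild type skin over 7 genes, of which the defining Krt5, Krt14 and Krt15 were at the floor on both arrays. Dermal fibroblast markers had a median of 0.29 (5 of 6 higher, Pdgfra highest at 1.02 and Lum lowest at -0.22), skeletal muscle markers 0.20 (9 of 9 higher, 8 of 9 with quantile normalization, led by Myh8 at 0.94, with Acta1 at 0.063 and Des lowest at 0.028) and hair follicle markers 0.27 (9 of 9 higher, 8 of 9 with quantile normalization or lowess correction, led by Krt71 at 0.79 and with Lef1 lowest at 0.021). Macrophage markers had a median of 0.58, led by Adgre1 at 0.97 and with C1qc lowest at 0.24. The part of these shifts in the lipid gene values was not tested.

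**Figure D4:**
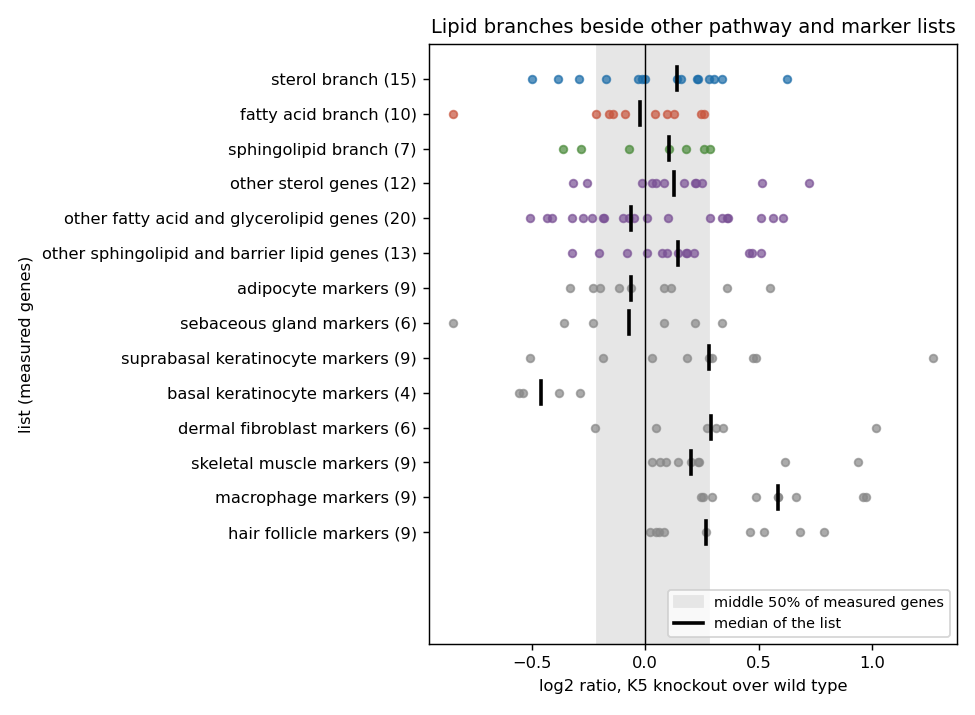
Log2 ratios of K5 knockout over wild type (points, 1 per measured gene) for the 3 lipid branches, 3 lists of other genes of the same pathways (purple) and 8 lists of cell type markers (grey), with the median of each list (black bar) and the middle 50% of all measured genes (band, -0.21 to 0.28). The medians of the 3 branches (0.14, -0.022 and 0.11) lie inside the band, that of suprabasal keratinocytes (0.28) lies at its upper edge, and those of basal keratinocytes (-0.46), macrophages (0.58) and dermal fibroblasts (0.29) lie outside it.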

How the data were processed

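Pooled skin RNA of K5 knockout and of wild type newborn mice was read on 1 array per group. The authors deposited an intensity for each probe set, made with MAS5 per the submitters' processing notes; its version, scaling target and detection calls are not given in the sources used here. Both arrays were scaled to a common 2% trimmed mean (factors 1.00004 and 0.99996), floored at the 40th percentile and log2-transformed; the brightest probe set stood for a gene. With 1 array per group there are no residual degrees of freedom, so results are sizes at 2-fold and 1.5-fold. The number of arrays limits the precision.

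The lipid genes and all lists were chosen with earlier results of these data known. Every listed gene with a signal above the floor is named; of each further pathway list the 4 highest and 4 lowest ratios are named, leaving out genes that exceeded the floor on 1 array alone, and of marker lists the extremes and the brightest or defining genes. St3gal5 and some marker genes beyond these were chosen after their values were seen. Symbols of all 34 genes matched the RefSeq gene table of GRCm38.p6. The steps ran in Python 3.11.15 and were tested on simulated data.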

Additional observations from a re-analysis of the deposited data

How the results depend on the processing

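The results were recomputed under 8 alternatives: floors at the 25th and 60th percentile, a pseudocount of 100, quantile normalization, lowess correction, the mean over probe sets, plain probe sets only, and genes above the floor on both arrays only. In each of them 0 of the lipid genes differed 2-fold. The count at 1.5-fold, 2 as reported, was 1 with the higher floor, the pseudocount, quantile normalization, lowess correction and plain probe sets, and 0 with the mean over probe sets, which averages in sets at the floor. The shares of all measured genes past 1.5-fold were 9.74% with the higher floor, 11.4% with the pseudocount and 12.9% with plain probe sets. They were 11.9% with quantile normalization and with lowess correction, and 10.4% with the mean over probe sets, beside 12.9% as reported. The share of all measured genes past 2-fold was 4.23% with the lower floor and 1.48% with the higher one. The macrophage median was 0.25 with the mean over probe sets. Of 252 single values of lipid genes, 248 stayed within 1 SD of the reported ratio; the other 4 were Scd1 (-0.52), Sc5d (0.31) and Elovl6 (-0.27) with the mean over probe sets and Nsdhl (0.012) with plain probe sets. The sterol branch split 10 higher to 5 lower with quantile normalization and lowess correction, and its median ranged down to -0.0016 with the higher floor and was 0.012 with plain probe sets; the sphingolipid branch split 5 to 2 with lowess correction. The fatty acid branch split 4 to 6 with quantile normalization and lowess correction, and its median was 0.044 with the lower floor and -0.12 with the mean over probe sets. No paired analysis was possible because each group is 1 array, and for the same reason no replicate could be left out.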
